A study of Mus musculus with 3 samples.

Results

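The levels of 10 genes for enzymes that make or remove retinoic acid (RA) were examined among the 29267 genes of RNA-seq tables from mouse embryonic fibroblasts (MEFs) and embryonic stem cells (ESCs). The genes were listed by their known roles and matched by Ensembl identifier, and all 10 were found in each table. Rdh10, Aldh1a1, Aldh1a2 and Aldh1a3 were taken as the 4 makers. Cyp26a1, Cyp26b1, Cyp26c1, Dhrs3 and Lrat were taken as the 5 removers, and Rdh11 was put on neither side. The study asked how RA and vitamin C act together during the reprogramming of MEFs, with MEFs and ESCs as control libraries. Its libraries here were 1 of MEFs of the OG2 strain, with Oct4-GFP as a transgene, 1 of MEFs of the ICR strain and 1 of ESCs labelled R1 and naive. The MEFs were at passages 3 to 5 and the ESCs at passage 30, and no agent is named for any of them. Whether the MEFs of a library came from 1 embryo or several is not given in the sources used here. The 2 MEF libraries were treated as samples of one group, so their spread also holds the difference between the strains.

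RA is made from retinol (vitamin A) in a pair of oxidation steps. RDH10 turns retinol into retinaldehyde, and the ALDH1A enzymes turn retinaldehyde into RA, which binds nuclear receptors and switches on target genes. DHRS3 returns retinaldehyde to retinol, LRAT stores retinol as esters, and the CYP26 enzymes oxidize RA itself for disposal. Embryonic mesenchyme is known as a tissue in which local supply and clearance set the level of RA.

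The expected counts summed to between 1717838 in the ESC library and 5149312 in OG2 MEFs, so a floor of 3 counts corresponded to a CPM (counts scaled to a fixed library total) of 0.532 in OG2 MEFs and 0.580 in ICR MEFs, while in the shallower ESC library it was 2.15. The markers of the ESC library bore out its label only in part. Of 15 pluripotency genes, 8 had counts in it, Pou5f1 and Nanog among them, and 7 had 0 counts, including Zfp42, Esrrb and Dppa5a, while the list summed to 142 CPM against 12.6 and 19.9 in the MEF libraries. All 13 fibroblast genes had counts in it, with a sum of 4255 CPM against 34204 and 35872 in MEFs. Sums of 11 epithelial genes were 8.70 and 14.7 CPM in MEFs and 462 in the ESC library, with Krt5, Krt4 and Trp63 at 0 there. Endothelial (5 genes; 13.3, 18.2 and 81.8 CPM in OG2 MEFs, ICR MEFs and the ESC library), neural (5 genes; 174, 201 and 509), blood (5 genes; 26.3, 11.6 and 15.8) and extraembryonic endoderm genes (7 genes; 125, 131 and 23.7) were also summed. The part of these cell type markers in the results below was not tested. The library is called the library labelled ESC. In these bulk samples, fewer cells of a type and less RNA per cell cannot be told apart.

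Among the removers, Cyp26a1 and Cyp26b1 are the genes the study followed as the route of RA disposal, and it also placed their promoters before a reporter gene. Those promoters reached further on both sides of the start site than the windows below. The study reported a site for the mesenchymal factor ZEB1 on the Cyp26a1 promoter and one for TWIST1 on that of Cyp26b1. It tested both by mutation, and the shorter windows here need not hold them. The windows from 250 bases before to 50 bases after the start site are given below from RefSeq on GRCm38.p6, with that of Aldh1a2, the maker with no count in the library labelled ESC. Windows were found for 8 of the 10 genes. Capitals mark a DR5 element (2 direct-repeat hexamers with 5 bases between them), which RA receptors are known to bind, E-boxes (CANNTG) and the letters TATAAA, each searched on both strands.
Cyp26a1, chr19:37697558-37697857, plus strand: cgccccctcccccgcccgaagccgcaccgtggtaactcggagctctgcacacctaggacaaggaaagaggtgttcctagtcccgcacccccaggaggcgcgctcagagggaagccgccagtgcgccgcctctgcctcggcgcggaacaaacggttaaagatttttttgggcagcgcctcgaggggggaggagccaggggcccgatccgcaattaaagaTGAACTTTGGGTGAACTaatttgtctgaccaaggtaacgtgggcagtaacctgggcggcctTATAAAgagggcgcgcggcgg
Cyp26b1, chr6:84593761-84594060, minus strand: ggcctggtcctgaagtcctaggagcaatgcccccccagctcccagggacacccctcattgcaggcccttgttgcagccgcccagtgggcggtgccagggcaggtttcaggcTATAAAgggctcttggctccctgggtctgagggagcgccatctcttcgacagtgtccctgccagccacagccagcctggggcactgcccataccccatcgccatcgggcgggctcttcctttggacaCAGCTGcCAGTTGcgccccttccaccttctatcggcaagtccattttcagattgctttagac
Aldh1a2, chr9:71215539-71215838, plus strand: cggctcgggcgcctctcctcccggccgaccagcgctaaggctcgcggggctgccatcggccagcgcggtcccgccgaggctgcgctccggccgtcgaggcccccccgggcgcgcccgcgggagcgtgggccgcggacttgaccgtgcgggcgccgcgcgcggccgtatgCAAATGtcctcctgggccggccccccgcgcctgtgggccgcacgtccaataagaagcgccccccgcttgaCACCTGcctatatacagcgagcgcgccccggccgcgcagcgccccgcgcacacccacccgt
The DR5 element was found in the Cyp26a1 window, with its first base 32 bases before the RefSeq start site, and in 0.0974% of all 32851 windows. No other window of the 8 genes held it. The Cyp26b1 window held 2 E-boxes, at 12 and 5 bases before the start, and the Aldh1a2 window held 2, of which the one 11 bases before the start read CACCTG, the form that ZEB1 is known to bind. CACCTG is one of the CANNTG forms. TATAAA began at position 30 from the start site in the Cyp26a1 window, on its transcribed side, and at position -139 in that of Cyp26b1. Of all windows 72.3% held an E-box, 20.2% held CACCTG and 13.6% held TATAAA. These matches describe the letters and are not evidence of binding.

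Aldh1a3, which encodes one of the enzymes for the last step to RA, was the member that rose most in the library labelled ESC. It lies on chromosome 7 of GRCm38 from 66390890 to 66427517. The MEF libraries of OG2 and ICR had 10 and 11 counts, and the library labelled ESC had 87, although it was the shallowest. At the mean MEF level, 2.72 counts were to be expected there. The MEF libraries were close to each other and far below the third. On the log2(CPM + 1) scale, Aldh1a3 was at 1.56 ± 0.12 (SD, n = 2) in MEFs and at 5.99 in the library labelled ESC, a difference of 4.43, and 1.56% of all genes with a count had a larger difference. The ratio of CPM was 35.1 against OG2 MEFs (exact binomial 95% interval 18.2 to 75.9) and 29.3 against ICR MEFs (15.6 to 60.9). With edgeR's quasi-likelihood test over all genes, its log2 fold change was 5.15 (SE 0.34), with a Benjamini-Hochberg adjusted p of 1.91e-06. With 1 residual degree of freedom, this test took its spread from the MEF libraries alone. It draws the spread of each gene towards a trend over all genes. The p of Aldh1a3 therefore rests also on the spread of other genes, and measures only spread between the MEF samples. In TPM, a level per transcript length, Aldh1a3 went from 2.03 and 2.61 to 32.6. It moved from percentiles 25.5 and 26.9 of the detected genes to percentile 82.4.

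Aldh1a2 encodes another enzyme for this step and is known as the main source of RA in embryonic mesoderm. The gene lies on chromosome 9 from 71215789 to 71296243 and moved the opposite way. Counts were 42 and 40 in MEFs of OG2 and ICR, against 0 in the library labelled ESC. Both MEF libraries were well above their floor, and 10.6 counts were to be expected in the third library at their level. The fall was at least 3.53-fold in CPM, taking 3 counts in that library as the floor. On the log2(CPM + 1) scale the MEFs were at 3.10 ± 0.034 (SD, n = 2), and the difference of -3.10 was lower than that of all but 5.23% of genes. The adjusted p of edgeR's quasi-likelihood test was 0.0031, and that of DESeq2's Wald test was 0.045.

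Aldh1a1, the third gene for this step (chromosome 19, 20492715 to 20643465), had counts of 27 and 20 in the MEF libraries (OG2, ICR), against 3 in the library labelled ESC. The value of 3 is at the floor, so its difference of -0.75 on the log2(CPM + 1) scale rests on few reads. It did not pass the test, with a log2 fold change of -0.83 (SE 0.83) and an adjusted p of 0.39 by edgeR. The CPM ratio to OG2 MEFs was 0.449, with an interval of 0.0872 to 1.46.

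Rdh10 makes the retinaldehyde that the ALDH1A enzymes use. The gene lies on chromosome 1 from 16105774 to 16133734 and had 76 and 93 counts in MEFs (OG2, ICR) but 10 in the library labelled ESC. Where the MEF level would give 22.0 counts, 10 were found. The log2(CPM + 1) difference was -1.02 against an SD of 0.28 between the MEF libraries, and the value was lower than in both of them. It did not pass edgeR's test, with a log2 fold change of -0.96 (SE 0.45) and an adjusted p of 0.086, but with no filter on low counts it did, at 0.031. With size factors from medians of ratios, and with DESeq2, Rdh10 did not pass. The ratio of CPM was 0.532 against OG2 MEFs (interval 0.245 to 1.03) and 0.399 against ICR MEFs (0.185 to 0.766).

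**Figure D1:**
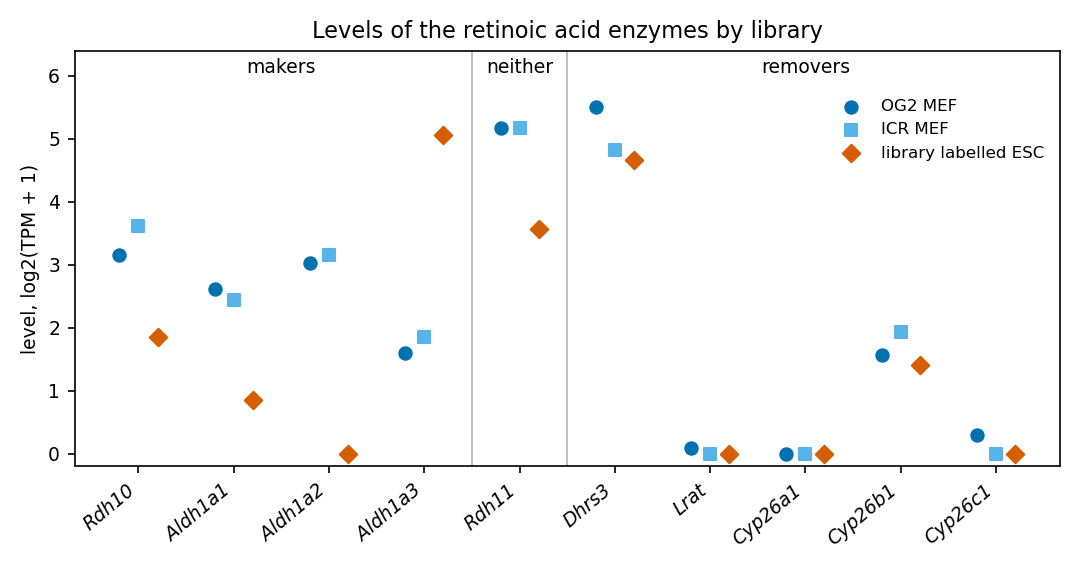
Level of each of the 10 genes as log2(TPM + 1) in OG2 MEFs (circles), ICR MEFs (squares) and the library labelled ESC (diamonds), 1 point per library, with makers at the left, Rdh11 in the middle and removers at the right. Aldh1a3 rises from 2.03 and 2.61 TPM to 32.6 TPM while Aldh1a2 goes from 7.16 and 7.95 TPM to 0, and Dhrs3 and Rdh11 are the highest genes in MEFs.

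The ALDH1A genes thus stood in a different order in the MEF libraries and in the library labelled ESC. Of the TPM summed over the 3 genes, Aldh1a2 held 50.0% in OG2 MEFs and 53.1% in ICR MEFs, Aldh1a1 held 35.8% and 29.5%, and Aldh1a3 held 14.2% and 17.4%. In the library labelled ESC, Aldh1a3 held 97.6% and Aldh1a1 the remaining 2.40%. The summed level was 14.3 and 15.0 TPM in MEFs and 33.4 TPM there. These shares are taken within a library and do not depend on the scaling between libraries.

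Rdh11 encodes an enzyme that can act between retinol and retinaldehyde and is mostly known as a retinaldehyde reductase, despite its name. It lies on chromosome 12 from 79174337 to 79192293. It had 305 and 250 counts in MEFs (OG2, ICR), the most of the 10 genes, and 40 in the library labelled ESC. On the log2(CPM + 1) scale it was at 5.71 ± 0.11 (SD, n = 2) in MEFs and 4.89 in the library labelled ESC. It fell by edgeR's test, with a log2 fold change of -0.67 (SE 0.23) and an adjusted p of 0.027. The call was lost with DESeq2's Wald test (adjusted p of 0.33) and in edgeR with size factors from medians of ratios (0.095).

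Among the removers, Dhrs3 was by far the most abundant. It lies on chromosome 4 from 144892827 to 144928209, and its product lowers retinaldehyde, the precursor of RA. MEFs had 172 (OG2) and 89 (ICR) counts, and the library labelled ESC had 56. On the log2(CPM + 1) scale these were 4.98, 4.19 and 5.36, so the library labelled ESC was the highest but lay only 0.38 above OG2 MEFs. The difference from the MEF mean of 0.78 was of the order of the SD between the MEF libraries, 0.56. Its edgeR log2 fold change of 0.92 (SE 0.35) had an adjusted p of 0.045, just inside the threshold of 0.05, while DESeq2 gave 0.22. In TPM the order turned, with 44.5, 27.3 and 24.3 in the same libraries. Dhrs3 made up between 90.6% and 95.1% of the TPM of the removers in each library.

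Cyp26b1 was the only CYP26 gene with more than 1 count in any library. The gene lies on chromosome 6 from 84571414 to 84593908. MEFs had 25 (OG2) and 31 (ICR) counts, and the library labelled ESC had 15, where 7.28 were to be expected at the MEF level. On the log2(CPM + 1) scale the difference was 0.93, against an SD of 0.26 between the MEF libraries. It did not pass edgeR's test, with a log2 fold change of 1.21 (SE 0.52) and an adjusted p of 0.062, and with size factors from medians of ratios it passed, at 0.036. With no filter on low counts, and with DESeq2, Cyp26b1 did not pass. The CPM ratio was 2.42 against OG2 MEFs (interval 1.19 to 4.78) and 1.79 against ICR MEFs (0.900 to 3.42). In TPM the values were 1.97, 2.82 and 1.67, with the library labelled ESC the lowest.

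The other removers were at or near 0. Cyp26a1 (chromosome 19, 37697798 to 37701536), the gene with the DR5 element, had 0 counts in all 3 libraries, which allows up to 0.532, 0.580 and 2.15 CPM. Its neighbour Cyp26c1 (chromosome 19, 37685581 to 37693398) and Lrat (chromosome 3, 82892579 to 82903973) each had 1 count in OG2 MEFs and 0 elsewhere. No difference was detectable for these 3 genes at this depth. The study measured Cyp26a1 and Cyp26b1 by qPCR during reprogramming and in MEFs, with RA added, and reported that RA raised both. No agent is named for the libraries here, so their counts and that assay are from unlike conditions. The primers are below, given to show which part of each transcript that assay read.
Cyp26a1 forward: aagctctgggacctgtactgt
Cyp26a1 reverse: ctccgctgaagcaccatct
Cyp26b1 forward: tcatcggagagactggtcact
Cyp26b1 reverse: ggtgctcactagctggtgttc
Matched to GENCODE M21 transcripts, the Cyp26a1 pair gave a product of 119 bases across exons 1 and 2 (chromosome 19, 37697985 to 37698295). The Cyp26b1 pair gave 173 bases from exon 2 to exon 3 (chromosome 6, 84584334 to 84587833). The RNA-seq counts cover the whole of each gene.

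**Figure D2:**
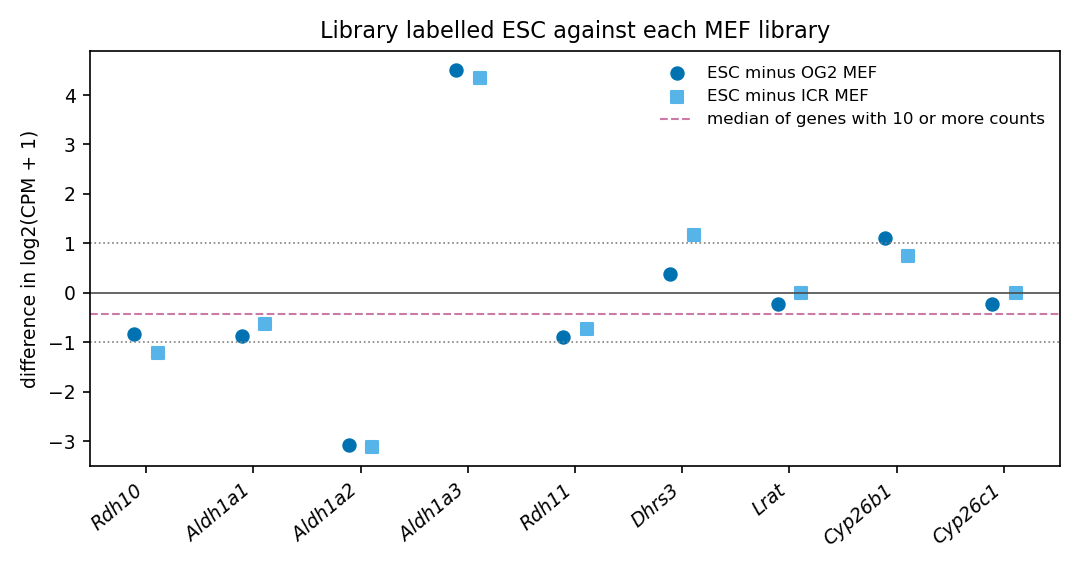
Difference in log2(CPM + 1) of the library labelled ESC from OG2 MEFs (circles) and from ICR MEFs (squares) for the 9 genes with a count, with dotted lines at 1 and -1 and a dashed line at the median over 12726 genes, -0.43. Aldh1a3 and Aldh1a2 lie beyond the dotted lines against both MEF libraries, and Rdh10, Dhrs3 and Cyp26b1 against 1 of them.

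By the threshold of 1 log2 unit from both MEF libraries, 1 of the 9 genes with a count was higher (Aldh1a3) and 1 was lower (Aldh1a2). Of all 17810 genes with a count, 21.9% were higher and 25.9% lower by the same rule. The share of the members past it was smaller, but it rests on 9 genes, of which Cyp26c1 and Lrat had 1 count each. Nothing is read from that gap. Without OG2 MEFs, Dhrs3 also passed as higher and Rdh10 as lower, and without ICR MEFs, Cyp26b1 passed as higher. With edgeR's test at an adjusted p under 0.05, 7 of the 10 genes passed the filter on low counts, of which 2 were higher (Aldh1a3, Dhrs3), 2 were lower (Aldh1a2, Rdh11) and 3 did not pass. Over all 12663 genes tested, 67.5% were called, 31.4% as higher and 36.0% as lower. The share of calls among the members was therefore near the background. DESeq2's Wald test called Aldh1a3 as higher and Aldh1a2 as lower and no other member. The median difference was -0.12 over the 9 members and -0.13 over all genes with a count. Both medians are values of genes with 1 count in 1 MEF library, so nothing is read from their closeness. By edgeR's log2 fold change, the median was -0.67 over the 7 members tested and -0.29 over all genes tested. Within the sides, the median difference was -0.89 over the 4 makers and 0.33 over the 4 removers with a count. Cyp26c1 and Lrat, with 1 count each, are among these removers, so 0.33 rests in part on them. The makers held both the largest rise and the largest fall of the members, and -0.89 describes neither.

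Zero on this scale depends on how the libraries are scaled. The median difference of 12726 genes with at least 10 counts in 1 library was -0.43, and it moved by 0.13 with a pseudocount of 5, by 0.17 with size factors from medians of ratios, by 0.20 after quantile normalization and by -1.11 with TPM. Relative to the median of each scaling, Aldh1a3 was higher by between 3.58 and 5.40. Cyp26b1 was higher than the median by 1.36 with CPM and 1.21 with TPM, and Dhrs3 by 1.21 and 1.04, although both turned below 0 with TPM before the median was taken off (-0.34 and -0.50). Rdh10 was lower than the median by -0.59 with CPM and level with it with TPM (0.0060). With a correction for GC content and gene length, Rdh10 turned from -1.02 to 0.16. Relative to the median, Rdh11 was at -0.39 with CPM, at -0.071 with TPM and at 0.085 with that correction.

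Makers were then set against removers within each library, by the sum of TPM. In OG2 MEFs the makers summed to 22.2 TPM and the removers to 46.8, a ratio of 0.475. In ICR MEFs they summed to 26.3 and 30.1, a ratio of 0.873. In the library labelled ESC they summed to 36.0 and 26.0, a ratio of 1.39. With these sides, makers were below removers in both MEF libraries and above them in the third. The order in MEFs rested on Dhrs3, since without it the ratios in OG2 MEFs, ICR MEFs and the third library were 9.79, 9.33 and 21.6. As log2 of the ratio, MEFs were at -0.63 ± 0.62 (SD, n = 2) and the library labelled ESC at 0.47, a difference of 1.10 for which no test was made. Between the MEF libraries, Dhrs3 differed most, with 44.5 TPM in OG2 and 27.3 in ICR. Of the makers, Aldh1a3 held 9.13% and 9.92% in MEFs but 90.5% in the third library. Without it, the ratio there was 0.132, below the 0.432 and 0.787 of OG2 and ICR MEFs, and the difference was -2.15. With Rdh11 counted as a remover, the ratios were 0.271, 0.403 and 0.977, so that makers were below removers in every library. With Rdh11 counted as a maker, the ratios were 1.23, 2.04 and 1.80, and the library labelled ESC lay between the MEF libraries. With expected counts in place of TPM, they were 0.780, 1.36 and 1.41.

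**Figure D3:**
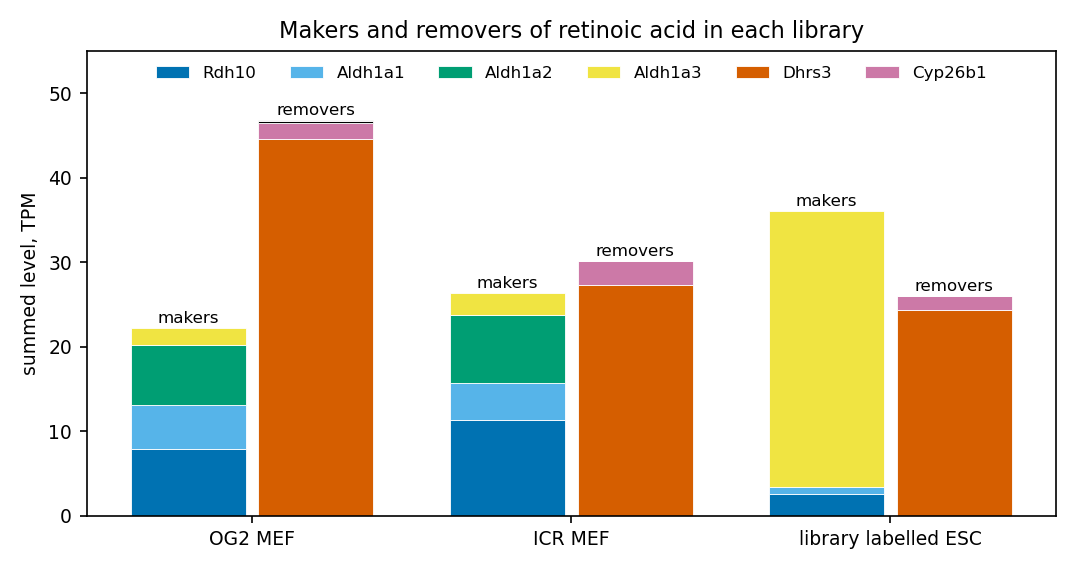
Summed TPM of the makers (left bar) and the removers (right bar) in each of the 3 libraries, with each gene's own part in colour and the axis starting at 0. Removers exceed makers in both MEF libraries (46.8 against 22.2 and 30.1 against 26.3 TPM), where Dhrs3 is 95.1% and 90.6% of the removers, while in the library labelled ESC the makers reach 36.0 TPM, of which Aldh1a3 is 90.5%.

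Levels of different genes can be compared in TPM. In MEFs, Dhrs3 at 35.9 ± 12.2 TPM (SD, n = 2) and Rdh11 at 35.2 ± 0.057 stood at the top and did not differ beyond their spread. Rdh10 at 9.63 ± 2.41 and Aldh1a2 at 7.56 ± 0.56 followed, with a gap within the SD of Rdh10. Within each MEF library Rdh10 was the higher, with 7.92 against 7.16 TPM in OG2 and 11.3 against 7.95 in ICR. Aldh1a1 was at 4.77 ± 0.49. Cyp26b1 at 2.40 ± 0.60 and Aldh1a3 at 2.32 ± 0.41 did not differ beyond theirs. In the library labelled ESC the order began with Aldh1a3 (32.6 TPM), Dhrs3 (24.3) and Rdh11 (10.8), followed by Rdh10 (2.62), Cyp26b1 (1.67) and Aldh1a1 (0.80). The genes whose log2(TPM + 1) over the 3 libraries lay nearest to Aldh1a3 were Upp1, Prodh and Lppos (Euclidean distances of 0.24, 0.25 and 0.42). For Dhrs3 they were Sil1, Cdk5 and Gpr137 (0.21, 0.24 and 0.34).

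The tables also give the mean length of the transcripts to which RSEM assigned each gene's reads. For Rdh10 it was 3587 bases in both MEF libraries and 2081 in the library labelled ESC. The gene has 2 transcripts in the table, one that encodes the protein and has 3587 bases in GENCODE M21, and one with a retained intron and 1959 bases. A mean of 2081 corresponds to 92.5% of molecules of the shorter one, or 0.20 TPM of the coding transcript against 7.92 and 11.3 TPM in MEFs, and rests on 10 counts. For Rdh11 the mean length went from 3262 and 3124 to 2016 bases, which corresponds to 0%, 8.72% and 78.4% of the shorter of its 2 coding transcripts (1673 bases). Aldh1a3 had 1965 and 1875 bases in MEFs and 1496 in the library labelled ESC. That is the length of one of its transcripts labelled as coding in GENCODE M21, of which the longest has 3443 bases. Whether the transcript of 1496 bases encodes the whole enzyme was not examined. Dhrs3 went from 1551 and 1523 to 1313 bases, and Cyp26b1 had 4700, 4751 and 4700. The mean length was thus below both MEF libraries for 4 of these 5 genes. Of 5838 genes with at least 10 counts in every library and a length that was not the same in all, 44.0% were shorter and 38.7% longer in the library labelled ESC. The annotation behind the tables is not that of GENCODE M21 for every transcript, since those of Cyp26b1 are 4157 and 4170 bases there.

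**Figure D4:**
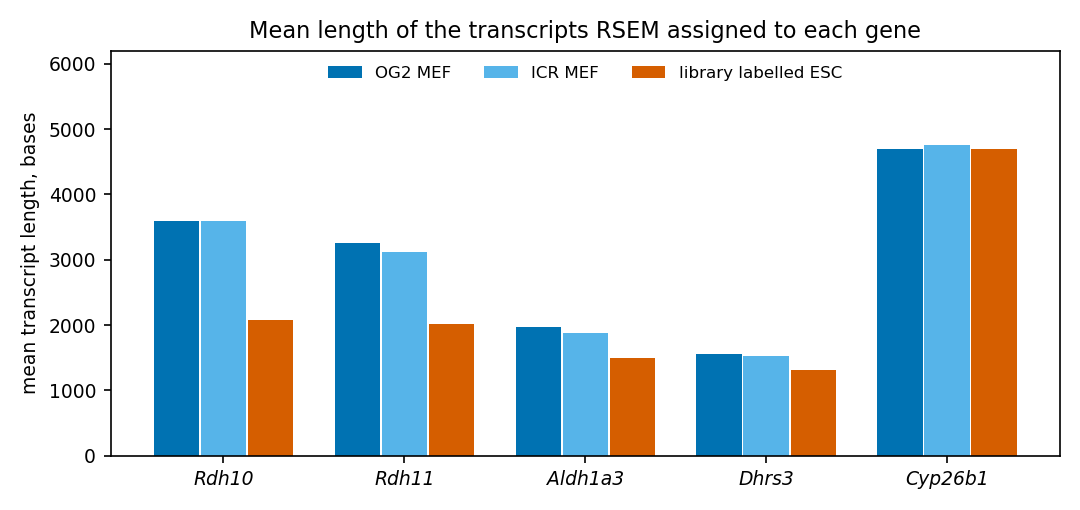
Mean length in bases of the transcripts assigned to each of the 5 members with several transcripts and at least 10 counts per library, as bars from 0 for OG2 MEFs, ICR MEFs and the library labelled ESC. The bar of the library labelled ESC is the lowest for Rdh10, Rdh11, Aldh1a3 and Dhrs3, and equals that of OG2 MEFs for Cyp26b1.

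Between the strains, none of the 9 members with a count was at least 1 log2(CPM + 1) unit apart, against 2.76% of all genes. With 1 library per strain there is no replicate check. Dhrs3 had the widest gap, 0.79 higher in OG2 MEFs, with a CPM ratio of 1.77 (interval 1.36 to 2.32). Rdh10 was 0.39 lower and Cyp26b1 0.36 lower in OG2 MEFs, and the intervals of their ratios, 0.546 to 1.03 and 0.419 to 1.29, both held 1. The ALDH1A genes differed by at most 0.25. The intervals hold counting error alone, because amplified reads that carry no molecular identifier are not separate molecules.

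The other genes of the retinoid pathway were described as 3 lists. Of 28 other enzymes of retinol, retinaldehyde and retinyl ester metabolism, 16 were tested by edgeR, of which 4 rose and 5 fell. Over all genes tested, 31.4% were higher and 36.0% lower. Among those that rose were Cyp2s1 (log2(CPM + 1) difference 2.92), which can oxidize RA, Dgat1 (2.10), which can esterify retinol, and Rdh5 (1.86), a retinol dehydrogenase known from the eye. In TPM, Rdh5 was at 8.14 and 7.86 in MEFs (OG2, ICR) and at 9.79 in the library labelled ESC, on 12, 10 and 14 counts. Those that fell included Cyp1b1 (-4.02), which can also make RA from retinol, Dhrs9 (-2.78) and Adh1 (-2.52), both of which can oxidize retinol. Cyp1b1 had 1473 and 900 counts in MEFs (OG2, ICR) and 17 in the library labelled ESC. Adh1 had 0 counts there against 20 and 32 in MEFs.

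Of 14 receptors and binding proteins, 10 were tested, of which 4 rose and 3 fell. Among those that rose were the receptor genes Rxrb (1.85) and Rara (1.11), although the TPM of Rara was lower, with 23.7 and 33.1 in MEFs and 18.0 in the library labelled ESC. Crabp1 (-2.21), which carries RA in the cytosol, and the receptor genes Rarb (-2.15) and Rarg (-2.11) fell. Of 12 genes known to be induced by RA, 8 were tested, of which 2 rose and 4 fell. With 67.5% of all genes tested called in either direction, the 7 of 10 and 6 of 8 called in these lists were near the background. Tgm2 (1.48) was among those that rose, and Rarb and Meis1 (-1.41) were among those that fell. In TPM, Tgm2 was lower, with 52.6 and 45.3 in MEFs and 42.2 in the library labelled ESC. Rarb had 30 and 11 counts in MEFs (OG2, ICR) and none in the library labelled ESC, and its adjusted p of 0.0498 was just inside the threshold. The median difference was -0.13 over the 21 other enzymes with a count, -0.079 over 13 receptors and binding proteins and -1.23 over 9 RA-induced genes, against -0.13 over all genes. The value of -0.13 is that of a gene with 1 count in 1 MEF library. By edgeR's log2 fold change over the genes tested, the medians were 0.47, -0.19 and -1.25 in the same order, against -0.29 over all genes tested.

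**Figure D5:**
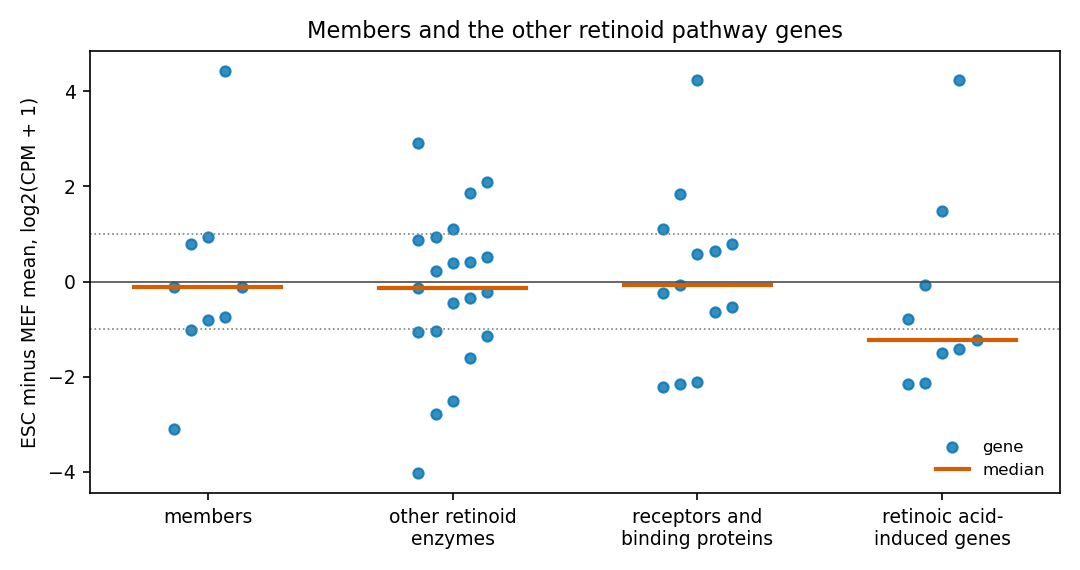
Difference of the library labelled ESC from the MEF mean in log2(CPM + 1) for the members and the 3 lists of other pathway genes, 1 point per gene with a count, with bars at the medians and dotted lines at 1 and -1. The medians are -0.12, -0.13, -0.079 and -1.23 from left to right, and Aldh1a3 (4.43) is the highest point of the members. The medians of the members and of the other enzymes are values of genes with 1 count in 1 MEF library.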

How the data were processed

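The authors trimmed the reads with TRIMMOMATIC, aligned them with bowtie2 to Ensembl transcripts and ran RSEM, which gave an expected count and a TPM for each gene and library. The submitters' processing notes name mm10. The deposited tables also hold FPKM by the authors, which was not used because it is proportional to TPM, and the transcript length and effective length, in bases. RSEM divides reads among transcripts and similar genes. The methods name a GC-content normalization, and the expected counts were taken as values before it.

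After rounding, the expected counts were scaled with TMM (edgeR 4.0.16, R 4.3.3). Levels are log2(CPM + 1); the pseudocount of 1 understates the change of low genes. A difference is the level in the library labelled ESC less the MEF mean. The quasi-likelihood test ran over all genes that passed filterByExpr, with Benjamini-Hochberg adjustment. The SE was the log2 fold change divided by the square root of F. The fit was tested on simulated data in which few genes changed and all genes had the same spread. These data differ from that setting, so the simulation does not give the error rate of the calls here. Intervals of CPM ratios are exact binomial 95% intervals. Alternatives were pseudocounts of 0.1 and 5, size factors from medians of ratios, quantile normalization (limma 3.58.1), TPM, a GC correction in 20 bins, alone or followed by one for length, a minimum of 10 counts, no filter, DESeq2 1.42.0 and each MEF library left out. Symbols and positions are from GENCODE M21 (GRCm38), which gave a symbol for 98.3% of identifiers, and in which no exon of a member overlaps one of another gene. The members and lists were chosen with earlier results of these data known. Genes named from the lists were those called by edgeR, at most the 3 largest rises and falls of each, of which some are not reported here, and the nearest genes were found for the maker and the remover with the highest mean TPM. Other values were computed with Python 3.11.15, pandas 2.3.3 and scipy 1.17.1.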

Additional observations from a re-analysis of the deposited data

How the results depend on the processing

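Aldh1a3 stayed above 0 and Aldh1a2 below 0 under each of the 10 alternatives, from 3.28 to 4.93 and from -6.27 to -1.33, and both passed the threshold of 1 log2 unit in all of them. Members called higher by that threshold went from 1 to 2 with full-quantile normalization (Cyp26b1) and to 2 without either MEF library. Members called lower went from 1 to 4 with TPM (Rdh10, Rdh11 and Aldh1a1) and were between 1 and 2 without a MEF library. Of the 2 members called higher and 2 called lower by edgeR, DESeq2 called 1 and 1, and edgeR with median-of-ratios size factors called 3 and 1. Over the 51 genes of the pathway lists, the 7 higher became 2 with TPM, and the 11 lower became 19 with TPM and 6 with a pseudocount of 5. The 11 called lower by edgeR became 3 with DESeq2. With a pseudocount of 0.1, 2 members were 1 log2 unit apart between the strains, Cyp26c1 and Lrat, each with 1 count in all. The log2 difference of makers over removers, 1.10, was 0.45 with expected counts, 0.19 with Rdh11 as a maker, from 0.67 to 1.54 without a MEF library and -2.15 without Aldh1a3, the last chosen after seeing the data. For these changes the cause was not tested, beyond what each alternative leaves out. No paired analysis was possible because no replicate number in the labels links a MEF library to the third one. No test could be made without a MEF library, since no residual degree of freedom remained. The depth of the library labelled ESC limits falls to a floor of 3 counts.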
